A study of Mus musculus with 2 samples.

Results

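Kinesins are motor proteins that walk along microtubules or take them apart, and the Kif genes encode most of the family. The genes described here are the 38 of 23365 in the authors' deposited table whose symbol is Kif followed by a digit. RNA was sequenced from mouse embryonic fibroblasts, which are connective tissue cells grown from dissociated embryos. One library came from wild-type cells and the other from cells lacking TET1 and TET2, enzymes that oxidize 5-methylcytosine. The sources used here do not give the age of the embryos, the passage of the cells, or whether a library stands for 1 embryo or a pool.

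The table names its 2 conditions A and B, and no label says which genotype either of them is. Each ratio is therefore condition B over condition A and is assigned to neither genotype. The 2 columns with the level of each condition carry names that match no sample and were not used, so a level here is always the mean normalized count over both conditions. With 1 library per genotype there is no replicate check, and the adjusted p-values of the authors' deposited table compare 2 libraries and not the genotypes. Tet1 and Tet2, the targeted genes, had log2 ratios of -1.82 and -0.74 per the authors' deposited table, so both were lower in condition B. They averaged 313 and 704 normalized counts, and the difference in Tet2, 1.67-fold, is under the 2-fold size rule used below. The name of the table puts the wild type before the knock-out, and both targets are lower in the condition that would then be the knock-out, but neither a name nor measured values were used to assign genotypes here.

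Mitotic kinesins build and move the spindle. They slide its microtubules apart, shorten them at chromosomes and poles, push chromosome arms outward, and bundle the midzone where the cell will divide. Transport kinesins instead carry vesicles, mitochondria, endosomes and ciliary cargo through cells that need not be dividing. Genes for mitotic motors are known for peaking in G2 and mitosis, under promoter elements bound by the MuvB complex and by NF-Y. By these textbook roles 12 of the genes were classed as mitotic, 13 as transport and 12 as other motors, and 1, Kif4-ps, is a pseudogene kept out of the classes.

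A mean of at least 50 normalized counts was reached by 31 of the 38 genes, 11 of them mitotic, 12 transport and 8 other. Kif2b, Kif12 and Kif4-ps are listed at 0 in both conditions in the authors' deposited table. Another 4 genes lay above 0 but under 50, namely Kif17 (11.3), Kif19a (5.01), Kif6 (27.8) and Kif27 (36.6 mean normalized counts in the authors' deposited table). All 11 genes of a fibroblast marker list reached the minimum, with means from 2254 to 550534 in the authors' deposited table. In the other marker lists only symbols that matched a gene are counted. They were 4 of 8 for multiciliated cells and 6 of 7 for macrophages. The lists for neurons, multiciliated cells, macrophages, endothelium and epithelium had 2 of 10, 2 of 4, 3 of 6, 2 of 5 and 1 of 6 genes at the minimum. In the first 3 of these lists Rbfox3, Tekt1 and Emr1 are listed at 0 in the authors' deposited table, but other members are not. Map2 and Stmn2 of the neuronal list averaged 5711 and 4013 normalized counts. Ccdc39 and Rsph1 of the multiciliated list averaged 94.9 and 58.2. Lyz2, Csf1r and Cd68 of the macrophage list averaged 94.7, 64.1 and 59.6. Whether such cells were present was not tested.

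Promoter sequence from RefSeq (GRCm38.p6, a later build than the authors' mm9) was at hand for 31 of the 38 genes, as windows of 250 bases before to 50 after each annotated start. Shown first are the 120 bases just before the start for the 3 kinesin genes whose adjusted p from the authors was under 0.1, the threshold set here. Kif3c is a transport kinesin shown beside them because its mean normalized count was close to that of Kif11. Capitals mark matches on either strand to TTTGAA, the core of the cell cycle homology region (CHR) that the MuvB subunit Lin54 binds, and to CCAAT, the box bound by NF-Y. A match on the minus strand reads TTCAAA or ATTGG.

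Kif11, chr19:37376262-37376381, plus strand: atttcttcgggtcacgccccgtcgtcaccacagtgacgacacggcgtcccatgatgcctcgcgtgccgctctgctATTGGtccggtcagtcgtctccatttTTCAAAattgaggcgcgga
Kif2c, chr4:117178773-117178892, minus strand: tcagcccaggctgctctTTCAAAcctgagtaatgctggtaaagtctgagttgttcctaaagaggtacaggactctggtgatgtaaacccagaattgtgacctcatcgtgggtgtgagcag
Kif26b, chr1:178529005-178529124, plus strand: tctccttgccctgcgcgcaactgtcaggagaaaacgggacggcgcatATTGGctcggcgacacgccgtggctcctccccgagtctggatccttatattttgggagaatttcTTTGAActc
Kif3c, chr12:3365012-3365131, plus strand: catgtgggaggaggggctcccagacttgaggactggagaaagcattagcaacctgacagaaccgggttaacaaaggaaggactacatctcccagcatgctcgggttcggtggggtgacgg

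All 11 mitotic kinesins at the minimum mean were at least 2-fold lower in condition B, and 0 of 12 transport kinesins were. A gene is called by size here when its log2 ratio reaches 1 in either direction, which 9.6% of the 12401 genes with the minimum mean did toward lower levels in condition B and 8.31% toward higher. The median log2 ratio was -2.0 over the mitotic kinesins and 0.16 over the transport kinesins, a difference of -2.16, while the median over all genes was -0.04. As assigned here the classes do not overlap, as the highest mitotic ratio was -1.53 and the lowest transport ratio -0.37 at the minimum mean. That separation depends on the assignment, which was made with earlier results of these data known. With Kif2a (log2 ratio -0.21) counted as mitotic, 11 of 12 were lower by size and the classes overlap. With Kif21a (-1.39) and Kif21b (-1.77) counted as transport, 2 of 14 were lower and the classes overlap too. At a stricter size of 4-fold (log2 ratio of at least 2), 6 of the 11 mitotic kinesins were lower, against 2.95% of all genes. In bulk RNA, fewer dividing cells and less RNA per cell cannot be told apart.

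**Figure D1:**
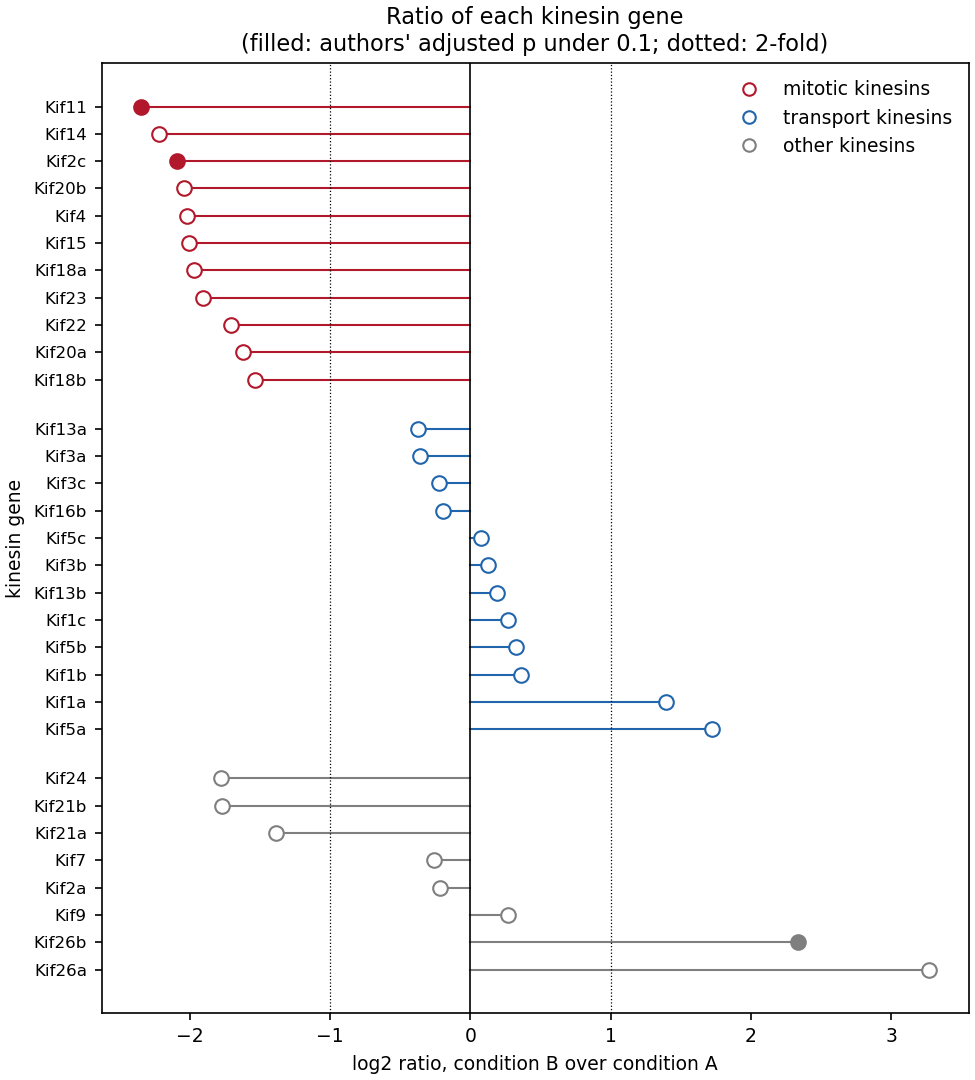
Log2 ratio of condition B over condition A for the 31 kinesin genes with a mean of at least 50 normalized counts, by class, from the authors' deposited table (1 library per genotype, so no error bars); filled points have an authors' adjusted p under 0.1 and dotted lines mark 2-fold. The 11 mitotic kinesins sit between -2.35 and -1.53 and the 12 transport kinesins between -0.37 and 1.72.

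Among motors that build the spindle, Kif11 (Eg5), which crosslinks microtubules and slides the poles apart, had the largest difference of the class. It averaged 3254 normalized counts and was 5.09-fold lower in condition B (log2 ratio -2.35, adjusted p = 0.0316, per the authors' deposited table). Kif15, which can take over from Kif11 in keeping the spindle bipolar, averaged 1343 and was 4.0-fold lower there (log2 ratio -2.0, adjusted p = 0.175, per the authors' deposited table). Kif11 passed the adjusted p threshold and Kif15 did not. Of 17339 genes with a p-value in the authors' deposited table, 0.871% passed lower in condition B and 1.42% passed higher.

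The motors that act on chromosomes and microtubule ends followed in the same range. Kif2c (MCAK), which depolymerizes microtubules at centromeres, averaged 2345 normalized counts and was 4.25-fold lower in condition B (log2 ratio -2.09, adjusted p = 0.0957, per the authors' deposited table), and it passed the threshold narrowly. Kif18a, which damps chromosome movements at the metaphase plate, averaged 923 and was 3.92-fold lower (per the authors' deposited table). Its relative Kif18b, which acts on astral microtubules, averaged 1471 and had the smallest difference of the class, 2.89-fold (per the authors' deposited table). Kif18a and Kif18b had adjusted p-values of 0.260 and 0.552 and did not pass.

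The chromokinesins bind chromosome arms. Kif22 (Kid), which pushes the arms toward the equator, averaged 2279 normalized counts with a log2 ratio of -1.71 per the authors' deposited table. Kif4, which also sets the length of midzone microtubules with Prc1, averaged 2261 with a log2 ratio of -2.02 per the authors' deposited table. Neither passed, at adjusted p-values of 0.303 and 0.123.

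Motors of the midzone and of cytokinesis completed the class. Kif23 (MKLP1), the motor of the centralspindlin complex, averaged 3016 normalized counts and was 3.74-fold lower in condition B (per the authors' deposited table). Kif20a (MKLP2), which brings Aurora B to the midzone, had the highest mean of the class, 5084, and was 3.07-fold lower (per the authors' deposited table). Kif20b, which acts in the completion of cytokinesis, averaged 2212 and was 4.11-fold lower (per the authors' deposited table). Kif14, which recruits citron kinase to the midbody, averaged 1042 and was 4.67-fold lower, the second-largest difference after Kif11 (per the authors' deposited table). These 4 genes had adjusted p-values from 0.118 to 0.313 and did not pass.

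The 11 ratios spanned 0.81 on the log2 scale. A log2 ratio of -1.53 or lower, the bound that contains the whole class, was reached by 5.13% of all genes at the minimum mean. Per kilobase of the longest transcript, mean normalized counts ran from 117 for Kif14 and 142 for Kif18a to 888 for Kif23 and 1384 for Kif20a. The level did not order the ratios, since Kif14 and Kif11, with 117 and 675 per kilobase, had the 2 largest differences. The kit does not mark strand, and 29.3% of the annotated exon bases of Kif20a are shared with Cdc23 and 15.1% of those of Kif4 with Pdzd11, both on the opposite strand. Cdc23 and Pdzd11 had log2 ratios of -0.09 and -0.06 per the authors' deposited table, and the sources used here do not say how the authors' counting split such reads.

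**Figure D2:**
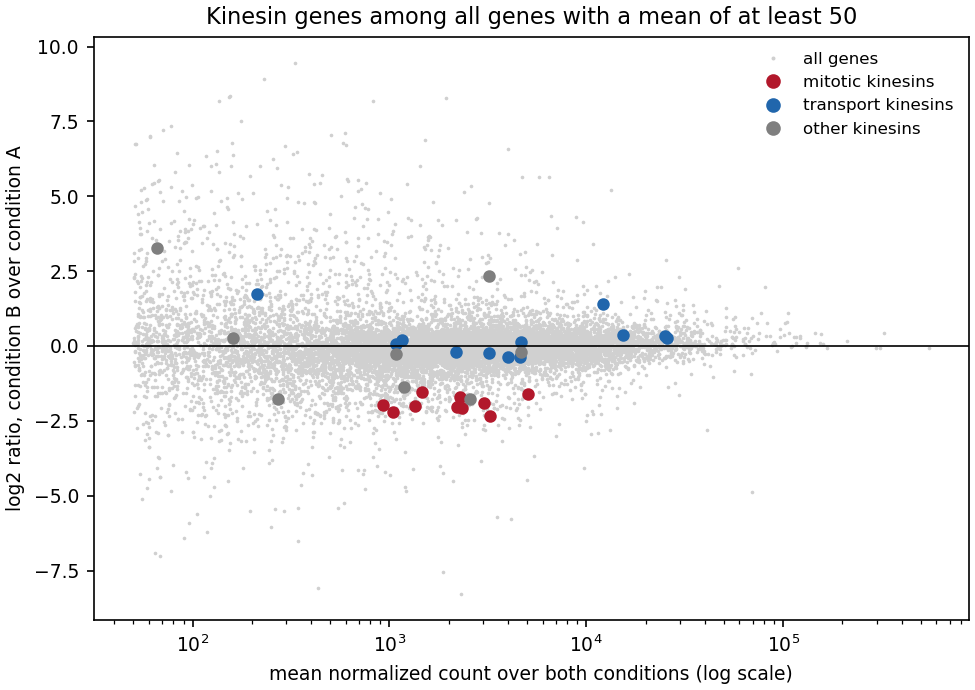
Mean normalized count over both conditions (log axis) against the log2 ratio of condition B over condition A, each point 1 gene with a finite ratio and a mean of at least 50. The mitotic kinesins (red) form a band between -2.35 and -1.53 at means from 923 to 5084, and the transport kinesins (blue) lie near 0 except Kif1a and Kif5a.

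Transport kinesins held the highest levels of the family. Kif5b, the ubiquitous conventional kinesin that carries mitochondria and vesicles, averaged 25086 normalized counts, or 4159 per kilobase, with a log2 ratio of 0.33 per the authors' deposited table. Kif1c, a motor of vesicle transport, averaged 25776, or 3856 per kilobase, with a log2 ratio of 0.27 per the authors' deposited table. Kif1b, a carrier of mitochondria and synaptic vesicle precursors, averaged 15405 with a log2 ratio of 0.36 per the authors' deposited table. These 3 genes differed by under 1.5-fold between the conditions.

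The kinesin-2 motors of ciliary transport stayed close to equal. Kif3a and Kif3b, partners in the motor that carries cargo toward the tip of the cilium, had log2 ratios of -0.36 and 0.13 per the authors' deposited table. Kif3c, a further kinesin-2 motor best known from neurons, had a log2 ratio of -0.23 at a mean of 3220 in the authors' deposited table. In Kif3c 35.3% of the annotated exon bases are shared with 1110002L01Rik on the opposite strand, which had a log2 ratio of 0.52 per the authors' deposited table.

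Endosomal and membrane carriers were close to equal as well. Kif13a, which moves recycling endosomes, had the lowest ratio of the class at the minimum mean, -0.37 on the log2 scale at a mean of 4598 in the authors' deposited table. Kif17, under the minimum at a mean of 11.3, had a log2 ratio of -0.75. Kif16b, a motor of early endosomes, and Kif13b, which carries Dlg-bound cargo, had log2 ratios of -0.19 and 0.19 per the authors' deposited table. All had an adjusted p of 1, as did Kif5c, whose log2 ratio was 0.08.

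The 2 transport kinesins called by size were both higher in condition B and are best known from neurons. Kif1a, the carrier of synaptic vesicle precursors, averaged 12198 normalized counts, or 1486 per kilobase, and was 2.62-fold higher in condition B (adjusted p = 0.527, per the authors' deposited table). Kif5a, the neuronal conventional kinesin, averaged 212 and was 3.30-fold higher (adjusted p = 1, per the authors' deposited table). Neither passed the adjusted p threshold, and at 4-fold 0 transport kinesins were called, against 3.84% of all genes higher in condition B. Of 10 neuronal markers, Map2 and Stmn2 reached the minimum mean, with log2 ratios of 0.08 and 0.21 per the authors' deposited table. Another 7 lay above 0 but under the minimum. Of these Nefm, Elavl4, Nefl and Syt1 had means of 46.0, 33.7, 6.27 and 39.6 and were higher in condition B, with log2 ratios of 3.47, 2.61, 3.61 and 0.91 per the authors' deposited table. Snap25 and Elavl3, at a mean of 2.53 each, had log2 ratios of 0.74 and Syp, at 17.4, one of -0.26 per the authors' deposited table. All 7 had an adjusted p of 1 from the authors, Rbfox3 is listed at 0, and the part of neuronal RNA in the ratios of Kif1a and Kif5a was not tested.

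The other kinesins went both ways, with 3 of 8 lower and 2 of 8 higher in condition B by size, against 9.6% and 8.31% of all genes. Their median log2 ratio was -0.24. That median has no stable direction, as it was 0.029 at a minimum mean of 10 and -0.82 at a minimum of 200. Kif26b, an atypical family member with roles in mesenchymal adhesion and kidney development, averaged 3198 normalized counts and was 5.06-fold higher in condition B (log2 ratio 2.34, adjusted p = 0.0330, per the authors' deposited table). It was the 1 kinesin that passed the threshold upward. Its paralogue Kif26a had a log2 ratio of 3.27 at a mean of only 65.7 and did not pass (adjusted p = 1, per the authors' deposited table).

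Kif21a and Kif21b, which dampen microtubule growth, were both lower in condition B by size. Kif21b averaged 2554 normalized counts and was 3.41-fold lower (adjusted p = 0.249, per the authors' deposited table), and Kif21a averaged 1181 and was 2.61-fold lower (adjusted p = 0.816, per the authors' deposited table). Kif24, a centriolar depolymerase that restrains cilium assembly, averaged 271 and was 3.43-fold lower (adjusted p = 0.993, per the authors' deposited table). These 3 ratios, from -1.78 to -1.39, lie in or just above the range of the mitotic class.

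Kif2a, a depolymerase of spindle poles and of neurons, stood apart from Kif2c with a log2 ratio of -0.21 at a mean of 4643 in the authors' deposited table. Of its annotated exon bases 19.2% are shared with Dimt1 on the opposite strand, which had a log2 ratio of 0.15 per the authors' deposited table. Kif7, which regulates Gli factors at the cilium tip, had a log2 ratio of -0.26 and Kif9, a motor of motile cilia, one of 0.27 per the authors' deposited table. None of the 3 passed, at adjusted p-values of 1.

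The promoter windows differed by class in the CHR core. TTTGAA was present in 9 of 11 mitotic kinesins with a window, 1 of 10 transport kinesins and 2 of 10 other kinesins, against 20.2% of 27025 genes. CCAAT was present in 7 of 11, 3 of 10 and 4 of 10, against 41.1% of genes, and both together in 6 of 11, 0 of 10 and 2 of 10, against 7.97%. TTTGGCGC, an E2F-type sequence, was found in Kif15 and Kif18a among the kinesins and in 158 of the 27025 genes. Where a gene has several windows, a match in any of them was counted. The 11 mitotic genes with a window are not the 11 of the ratios. Kif20a has no window here, while Kif2b, listed at 0, has one and carries CCAAT. Among the transport kinesins Kif5a, Kif5b and Kif13b have no window.

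In 7 of the 9 mitotic genes with TTTGAA, a match lay within 50 bases of the start, where 5.72% of all genes have one. That span was chosen after seeing the data, so the share of all genes gives scale and is no independent comparison. Positions count from the start, with no 0, and a match began at -19 in Kif11 and Kif15 and at -17 in Kif22. In Kif23, Kif18b, Kif20b and Kif4 it began at bases 3, 4, 8 and 20 of the transcript. The matches in Kif14 and Kif2c were farther off, at -228 and -103 from the start. Kif15 and Kif22 each had a further match, at -234 and -215. Kif18a and Kif2b, which is listed at 0, had none in the window. The single transport match was in the second window of Kif1a, at -44 from its start. Kif26b, higher in condition B, also carries both sequences, with TTTGAA from -9 and CCAAT from -73. A match describes letters in a window and does not show that a factor binds there.

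**Figure D3:**
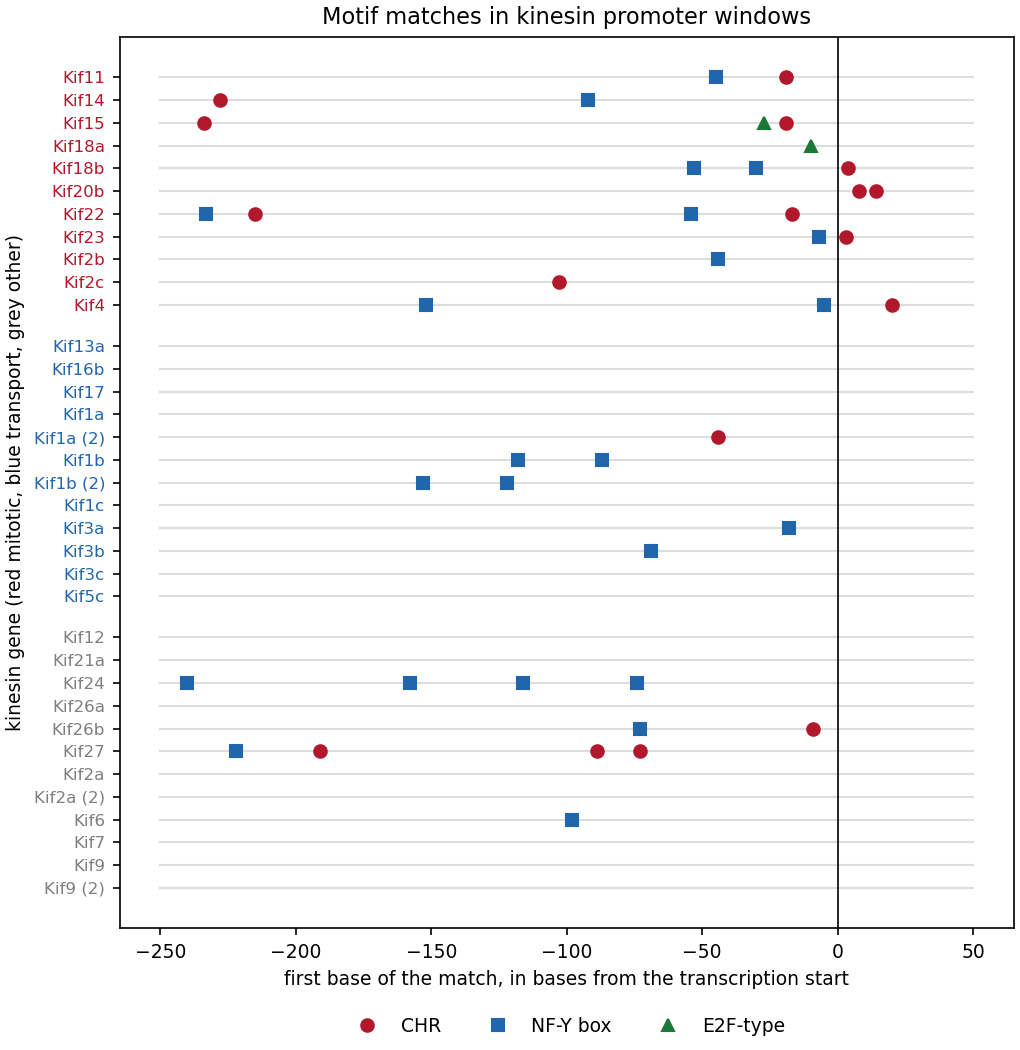
Position of the first base of each match to the CHR core (circles), the NF-Y box (squares) and the E2F-type sequence (triangles), in bases from the annotated start, for every RefSeq promoter window of the kinesin genes; a second window of a gene is marked (2). Matches to the CHR core are present in 9 of 11 mitotic genes with a window, and 1 of 10 transport genes with a window has one. In 7 of the mitotic genes a match lies within 50 bases of the start, and others lie as far off as -234.

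Kinesin superfamily genes with other symbols were compared in the same way. Cenpe, the kinetochore motor that carries chromosomes to the spindle equator, averaged 4419 normalized counts and had a log2 ratio of -2.14 per the authors' deposited table (adjusted p = 0.0611). Kifc1, a minus-end motor that focuses spindle poles, had one of -0.97 and its near-identical copy Kifc5b one of -1.12 per the authors' deposited table, so reads may be split between them. The minus-end transport motors Kifc2 and Kifc3 had log2 ratios of -0.05 and -0.94 per the authors' deposited table. Of these 5 genes, 2 were lower in condition B by size, against 9.6% of all genes.

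Partners of the mitotic kinesins were lower in condition B together with them, 16 of 16 by size with a median log2 ratio of -1.78 and 2 past the adjusted p threshold. These 2 were the checkpoint gene Bub1b (log2 ratio -2.15, adjusted p = 0.0695) and the kinase gene Plk1 (log2 ratio -2.08, adjusted p = 0.0840) in the authors' deposited table. Cit, the citron kinase that works with Kif14, had a log2 ratio of -2.15, and Aurkb, the kinase that Kif20a carries, one of -2.05 per the authors' deposited table. Among 5 proliferation markers 4 were lower by size and 3 passed, with a median of -1.97, and Mki67 had a log2 ratio of -2.26 per the authors' deposited table. Over all genes at the minimum mean, 9.6% were lower in condition B by size. Of genes with a p-value from the authors, 0.871% passed the threshold lower in condition B. The proliferation markers move with the mitotic kinesins, and their part in the kinesin ratios was not tested.

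All 14 regulators of the mitotic gene program had log2 ratios below 0, where 52.8% of all genes lay. By size 4 of the 14 were lower in condition B, against 9.6% of all genes, and the median log2 ratio was -0.31. Foxm1 and Mybl2, which join MuvB to switch on mitotic genes, had log2 ratios of -1.90 and -2.01 per the authors' deposited table. Rbl1 (p107) and the MuvB subunit gene Lin9 had ratios of -1.84 and -1.12 per the authors' deposited table. Of these regulators 0 passed the adjusted p threshold, against 0.871% of genes with a p-value lower and 1.42% higher.

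Light chains and cargo adaptors of the transport kinesins had 1 of 14 genes lower by size, near the 9.6% of all genes, 0 higher, and a median log2 ratio of 0.18, between the quartiles of all genes (-0.39 to 0.30). The exception was Klc3, a kinesin light chain, at a mean of 519 and a log2 ratio of -2.48 (adjusted p = 0.141, per the authors' deposited table). The largest of the others were Fez2 at 0.59, the Rab exchange factor Madd at -0.57 and Mapk8ip3, a scaffold that links kinesin to cargo, at 0.42 on the log2 scale per the authors' deposited table. In this list too 0 genes passed, against 0.871% of genes with a p-value lower and 1.42% higher.

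Of the 11 fibroblast markers 0 were lower and 3 higher in condition B by size, and Thy1 and Pdgfra passed the adjusted p threshold at log2 ratios of 2.88 and 2.54 per the authors' deposited table. The multiciliated, macrophage, endothelial and epithelial lists had 1 lower, 2 higher, 2 higher and 1 lower gene by size, and they rest on 1 to 3 genes each at the minimum mean. Over all genes at that mean, 9.6% were lower and 8.31% higher in condition B by size. Of genes with a p-value from the authors, 1.42% passed the threshold higher in condition B. The endothelial genes Kdr and Tek had means of 418 and 119 and log2 ratios of 2.78 and 1.21 per the authors' deposited table. Pecam1, Cdh5 and Tie1 of that list averaged 9.80, 8.43 and 0.47 normalized counts, under the minimum. Pecam1 and Cdh5 had log2 ratios of 2.06 and -0.36, and Tie1 had no finite ratio. The part of the cells of these lists in the kinesin ratios was not tested.

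**Figure D4:**
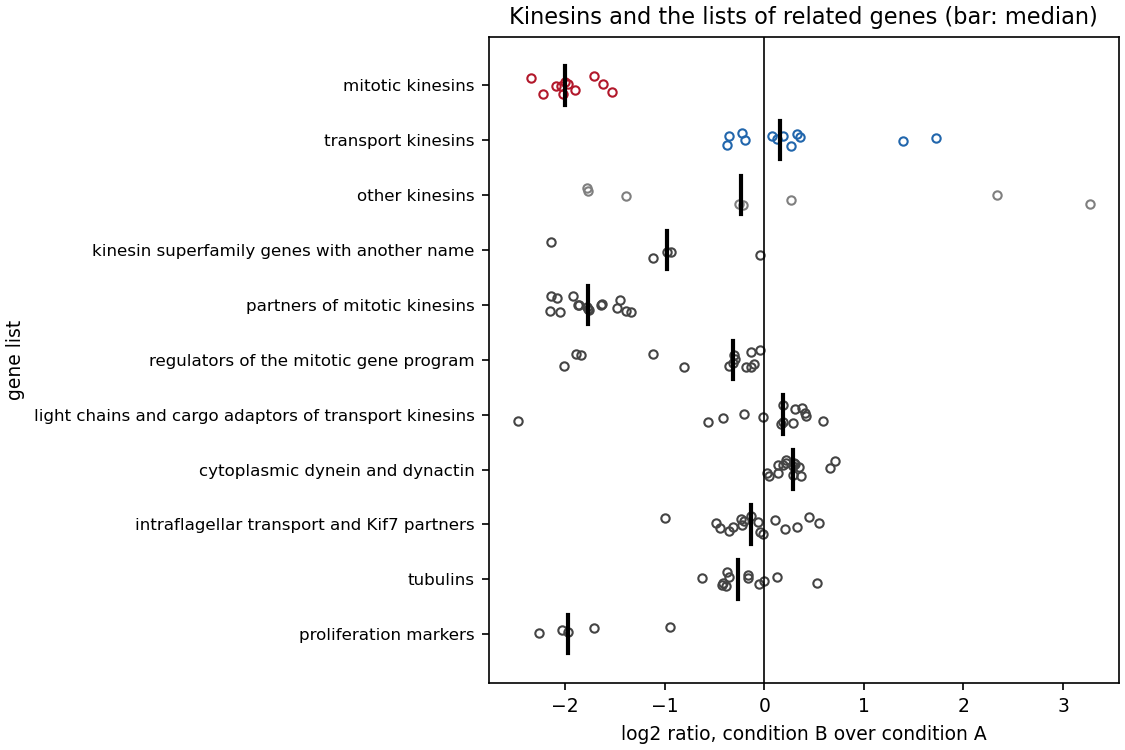
Log2 ratio of condition B over condition A for the kinesin classes and the lists of related genes, each circle 1 gene with a mean of at least 50 and each bar the median of its list; vertical scatter within a list only separates points. The mitotic kinesins, their partners and the proliferation markers have medians of -2.0, -1.78 and -1.97, and the transport kinesins and their adaptors 0.16 and 0.18.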

How the data were processed

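Per the labels' protocols, total RNA of frozen cells (TRIzol, DNase) entered the TruSeq RNA v2 kit, with 1 library per genotype. TopHat2 2.0, DESeq and build mm9 are named in the submitters' processing notes; the sources used here do not give the counter, annotation or dispersion settings. The authors' deposited signal is a mean over 2 conditions of counts divided by size factors. The authors' deposited ratio (fold) is condition B over condition A, and their deposited log2 ratio is its base-2 logarithm with no pseudocount. The deposited p-values are the authors' own, and their adjusted values equal a Benjamini-Hochberg adjustment over 17339 genes.

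The 2 columns of single-condition levels match no sample and were set aside, so depth, counting intervals and a planned comparison by genotype were not analysed here. The members, classes, lists and motifs were chosen with earlier results of these data known. Every Kif gene at a mean of at least 50 could be named, and from each other list the genes past the adjusted p threshold and up to 4 with the largest ratios in size. A gene was called by size at a log2 ratio of at least 1 (infinite ratios included), or by the authors' adjusted p under 0.1, a threshold set here. No test was run. Of 187 listed symbols 8 matched no gene. Transcript lengths and exon overlaps of at least 500 bases came from GENCODE M21 (GRCm38). Calling, trimming and motif search were tested on simulated data (Python 3.11.15, pandas 2.3.3). Alternatives were other minimum means, fold sizes, p thresholds, centrings and class assignments.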

Additional observations from a re-analysis of the deposited data

How the results depend on the processing

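Of 87 recomputed values under alternatives, for 15 results, 75 stayed within 1.5-fold with no change of direction, 9 moved further and 3 medians reversed. The 75 include counts of 0 that stayed at 0 and values that an alternative could not change, so the tally does not measure stability. The difference between the mitotic and transport medians ranged from -2.16 to -2.10 over minimum means of 10, 200 and none and both reassignments. Both centrings subtract the same amount from each median, so they could not change this difference. The minimum means could change only the transport median, since every mitotic kinesin above 0 averaged at least 923 normalized counts. At a log2 ratio of at least 2 the counts were 6 mitotic kinesins lower, 0 transport kinesins higher and 0 other kinesins lower in condition B, since fewer genes meet that size. With Kif21a and Kif21b among the transport kinesins, 2 transport and 1 other kinesins were lower by size, and the median of the others turned to 0.029. That median was also 0.029 at a minimum mean of 10, 0.15 with no minimum and -0.82 at a minimum of 200, where 1 other kinesin was higher by size because Kif26a drops out, so the class has no stable direction. At an adjusted p under 0.05, 1 kinesin, Kif11, was lower in condition B. With the promoter search narrowed to 50 bases either side of the start, chosen after seeing the data, 1 other kinesin had TTTGAA. No paired analysis was possible because each genotype has 1 library. Counting error could not be given, and ratios of genes with low means, such as Kif26a and Kif5a, are the least certain.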

Other observations

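Cytoplasmic dynein, the motor that walks the opposite way to most kinesins, and its activator dynactin had 15 of 15 genes at the minimum mean above a log2 ratio of 0, where 47.2% of all genes lay. Their ratios were small, with a median of 0.29 that lies between the quartiles of all genes (-0.39 to 0.30). By size 0 of 15 were called, against 9.6% of all genes lower and 8.31% higher in condition B. The heavy chain gene Dync1h1 had a mean normalized count of 50697 and a log2 ratio of 0.02 per the authors' deposited table. The largest were the light chain gene Dynll2 at 0.71 and the dynactin gene Dctn6 at 0.65 on the log2 scale in the authors' deposited table.

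Tubulins, the track of these motors, had a median log2 ratio of -0.26 over 12 genes, 10 of them below 0, against 52.8% of all genes. That median too lies between the quartiles of all genes, and 0 were called by size, against 9.6% of all genes lower and 8.31% higher. Tubb5, the most abundant, had a mean of 57334 and a log2 ratio of -0.38 per the authors' deposited table. Tubb3, best known from neurons, had a log2 ratio of 0.53 per the authors' deposited table. Genes of intraflagellar transport and partners of Kif7 had a median of -0.13 over 17 genes with 0 called by size, and the retrograde ciliary motor Dync2h1 had the largest difference, a log2 ratio of -0.99 per the authors' deposited table. In all 3 lists 0 genes passed the authors' adjusted p under 0.1, against 0.871% of genes with a p-value lower and 1.42% higher.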
